A study of Arabidopsis thaliana with 18 samples.

Results

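The 6 nuclear genes LHCA1, LHCA2, LHCA3, LHCA4, LHCA5 and LHCA6, which encode the light-harvesting antenna of photosystem I, were followed in Arabidopsis thaliana seedlings as they turned from darkness to light. The genes were chosen by name, with earlier results of these data known. They make up 6 of the 24951 genes listed in the series. LHCA proteins are membrane proteins of the thylakoid that bind chlorophyll a and b and pass excitation energy to the photosystem I core. LHCA1 to LHCA4 form a belt on one side of the core as the pairs LHCA1 with LHCA4 and LHCA2 with LHCA3, while LHCA5 and LHCA6 are minor proteins that join photosystem I to the chloroplast NADH dehydrogenase-like (NDH) complex, which carries cyclic electron flow. Etiolated seedlings hold no chlorophyll until light allows protochlorophyllide to be reduced, and antenna genes are a textbook example of light-induced nuclear genes.

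Wild-type seedlings germinated on MS medium were kept in darkness for 7 days and then moved to light for 0, 1, 2, 4, 8 or 12 h. Each of the 6 times had 3 libraries of polyA RNA, 18 in all, and the seedlings of 0 h are called dark below. All groups shared the 7 days of darkness, and every later group received light, so light, age and time of day cannot be told apart. Nothing in the labels says whether the replicates came from separate cultures, so the p-values measure the spread between these libraries, which may be technical. The labels name seedlings as the tissue, whereas the series title speaks of the leaf, and the labels are followed here. In such bulk samples, a larger share of antenna-bearing cells and more RNA per cell cannot be told apart.

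The libraries held between 20072467 and 22760811 expected counts. Replicate 3 of the dark group and replicate 3 of the 2 h group stood apart from the other libraries of their times: their 4 correlations across genes of log2 CPM (counts scaled to library size) lay at 0.944 to 0.950, against 0.971 to 0.990 for the other 14 pairs of replicates. Replicates are numbered as in the sample titles. The fold changes against dark, the step from 1 h to 2 h and the shares are also given without these libraries. The summed level of 11 root marker genes was measured as a check of tissue make-up, in FPKM, the fragments of a gene scaled by its transcript length and by the size of the library. It was 219, 192 and 54.7 in dark replicates 1, 2 and 3 and 236, 230 and 112 in those of 2 h, so the libraries that stood apart held the lowest root marker level of their times. At 12 h it lay between 78.9 and 89.3. The part of these levels in the LHCA results was not tested. 7 of the 11 root markers were listed above 0 in every dark library, and the root-hair expansin EXPA18 was at 0 in every library except those of 2 h.

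LHCA1 (AT3G54890) lies on chromosome 3 from 20339504 to 20341176 on the reverse strand, in the coordinates of the files, which match RefSeq's TAIR10.1 assembly. LHCA2 (AT3G61470) lies on chromosome 3 from 22745514 to 22747444 on the forward strand, and LHCA4 (AT3G47470) on chromosome 3 from 17493343 to 17495033 on the reverse strand. LHCA3 (AT1G61520) lies on chromosome 1 from 22699715 to 22701412, LHCA5 (AT1G45474) from 17179250 to 17180806 and LHCA6 (AT1G19150) from 6612630 to 6613972 on the same chromosome, all on the forward strand. LHCA5 overlaps AT1G45545 on the opposite strand, and its expected count was fractional in 18 of 18 libraries, as given where reads are divided between features. Between 58.1 and 62.9 counts were given to AT1G45545 in the dark, against 254.9 to 354.9 for LHCA5, and between 194 and 239 at 12 h, against 1834.9 to 1985.9, so the level of LHCA5 is uncertain where the division of shared reads could move it. LHCA4 overlaps AT3G47460, which held at most 224 counts in any library, against at least 3534 for LHCA4.

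The promoters of the 2 genes called at 1 h in the fit of all libraries (LHCA1 and LHCA4, both lost without dark replicate 2) and of the gene with the smallest change at 12 h (LHCA2) are shown from RefSeq's TAIR10.1 genome. Each is read 5′ to 3′ on the gene's own strand and ends at the base before the annotated start of the gene. The window was 250 bases, shortened for LHCA1 to the 180 bases that do not reach the neighbouring gene AT3G54900. Capitals mark matches to 6 short motifs, each searched on both strands. CACGTG is the G-box bound by light-signalling factors, and GATAAG is the I-box of light-regulated promoters. CCAATC holds the core site of the nuclear factor Y family, AAAATATCT is the evening element of clock-regulated genes, AAAAATCT is a site of the clock factor CCA1, and TATAAA is the core of the TATA box.
LHCA1, chr3:20341177-20341356, reverse strand: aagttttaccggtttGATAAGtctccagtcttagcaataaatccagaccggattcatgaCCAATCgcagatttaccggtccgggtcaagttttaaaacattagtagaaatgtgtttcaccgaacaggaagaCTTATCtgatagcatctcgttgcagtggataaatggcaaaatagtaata
LHCA4, chr3:17495034-17495283, reverse strand: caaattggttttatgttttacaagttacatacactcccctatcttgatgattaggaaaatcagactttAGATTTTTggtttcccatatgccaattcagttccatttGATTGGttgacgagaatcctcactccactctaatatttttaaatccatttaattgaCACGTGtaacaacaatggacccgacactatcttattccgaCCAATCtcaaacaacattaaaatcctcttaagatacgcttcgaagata
LHCA2, chr3:22745264-22745513, forward strand: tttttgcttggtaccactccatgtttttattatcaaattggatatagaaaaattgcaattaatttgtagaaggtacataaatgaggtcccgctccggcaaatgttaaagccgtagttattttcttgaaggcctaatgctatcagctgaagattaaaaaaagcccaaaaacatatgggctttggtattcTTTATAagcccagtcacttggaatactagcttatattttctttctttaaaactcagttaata

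In the LHCA1 promoter GATAAG matched at 2 places, on opposite strands, and CCAATC at 1 place. The LHCA4 promoter held 1 match to CACGTG, 1 to AAAAATCT and 2 to CCAATC, 1 on each strand. The LHCA2 promoter matched TATAAA alone, 57 to 62 bases before the start and on the strand opposite to the gene. Among the other members, LHCA3 held CCAATC and TATAAA, LHCA5 held AAAATATCT and TATAAA, and LHCA6 held 2 matches to TATAAA that overlapped each other. Of 27443 promoters in the genome, 6.5% held CACGTG, 12.3% GATAAG, 10.2% CCAATC, 2.4% AAAATATCT, 6.7% AAAAATCT and 47.3% TATAAA. Those promoters, and the windows of LHCA3, LHCA5 and LHCA6, were 250 bases long and not shortened at neighbouring genes, unlike that shown for LHCA1. A match describes these letters in this window and shows no bound factor.

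All 6 LHCA genes were higher after 8 and 12 h of light than in the dark, but they differed in size and in time. A gene was called when its log2 fold change was 1 or more in either direction and its p in edgeR's quasi-likelihood test, Benjamini-Hochberg adjusted over 20569 genes, was below 0.05. All 6 members passed the low-count filter. By this rule 2 of 6 members were higher than dark after the first hour, 5 of 6 after both 2 h and 4 h, and 6 of 6 after both 8 h and 12 h. The count after the first hour was 1 to 3 with 1 library left out (1, LHCA5, without dark replicate 2), 1 with library size alone and 0 with the dark and 1 h libraries fitted alone. No member was called lower than dark. Among all genes tested, 3.66%, 13.9%, 11%, 13.6% and 13.1% were called higher after 1, 2, 4, 8 and 12 h, and 2.09%, 6.46%, 7.51%, 9.0% and 9.19% were called lower. The median log2 fold change of the members was 0.52, 1.94, 2.3, 2.56 and 2.5 at these times, beside -0.06, 0.10, 0.00, 0.01 and -0.01 for all genes tested. These comparisons share the 3 dark libraries. How many of all genes had no overlap between the libraries of the times compared was not counted, so such statements below have no background. In the test over all times the 6 members passed with adjusted p-values between 2.14e-08, for LHCA5, and 2.89e-05, for LHCA2, where 75.0% of all genes tested passed.

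**Figure D1:**
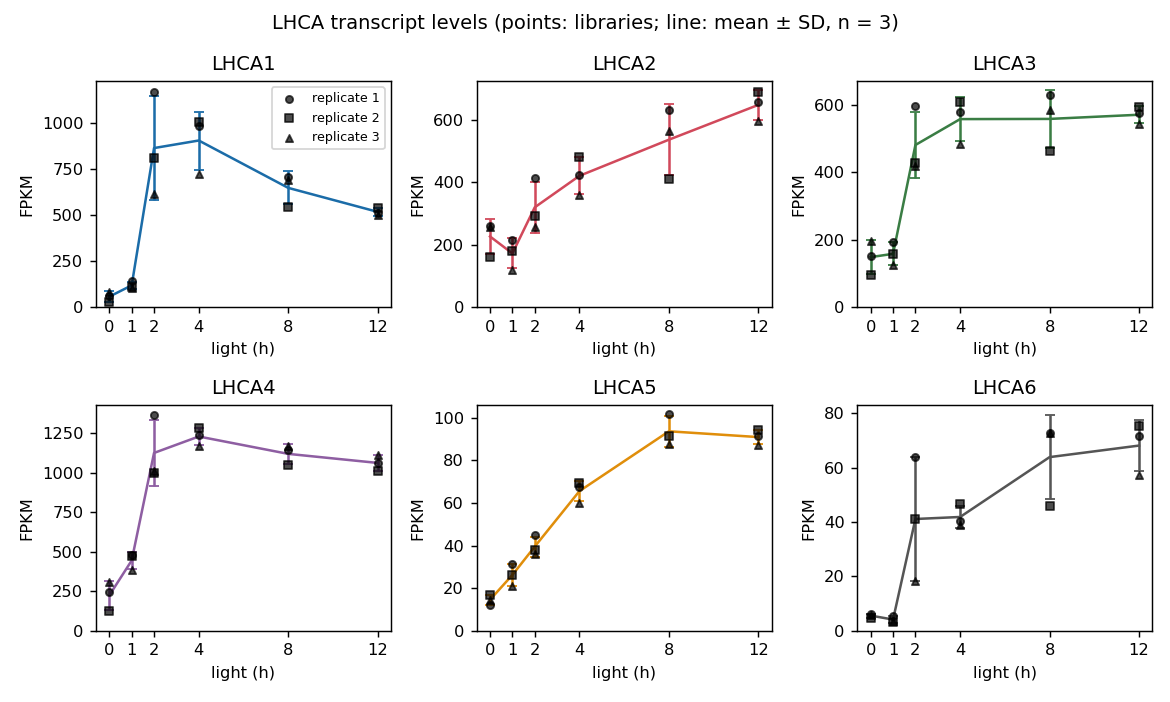
FPKM of each LHCA gene against hours of light, with 1 point per library, lines through the means and bars of 1 SD (n = 3); each panel has its own vertical axis from 0. LHCA1 was highest at 2 h and 4 h and lower at 12 h (mean 518 FPKM), while LHCA2 had its highest mean, 647 FPKM, at 12 h.

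LHCA1, which pairs with LHCA4 in the belt, had the largest fold differences against dark among LHCA1 to LHCA4. Its level in dark replicates 1, 2 and 3 was 62.7, 26.0 and 81.9 FPKM, and at 1 h it was 140, 109 and 105 FPKM. At 2 h the libraries held 1172, 809 and 613 FPKM, and at 4 h 986, 1008 and 724 FPKM. At 8 h they held 710, 545 and 690 FPKM and at 12 h 514, 540 and 500.
Every light library therefore stood above every dark library, and the 3 libraries at 12 h stood below the 3 at 4 h. The log2 fold change against dark was 1.14 (SE 0.301, adjusted p = 0.0214) at 1 h, 4.01 (SE 0.334, adjusted p = 2.2e-07) at 4 h and 3.27 (SE 0.323, adjusted p = 9.01e-07) at 12 h, the last a 9.65-fold difference. From 4 h to 12 h the log2 difference was -0.74 (SE 0.297, adjusted p = 0.11), which did not pass, and this contrast was added after the values had been seen. The call at 1 h rested on single libraries: without dark replicate 2, the lowest of its group, the log2 fold change was 0.86 (adjusted p = 0.037) and lay under the fold minimum, and without replicate 1 of 1 h it was 1.00 (adjusted p = 0.0877). It was also lost when the 1 h and dark libraries were fitted alone.

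LHCA4, the partner of LHCA1 and a protein that carries low-energy red chlorophylls, was the most abundant member after light. It was measured at 243, 123 and 307 FPKM in the dark and at 477, 475 and 383 FPKM at 1 h. The libraries of 2 h held 1368, 997 and 1012 FPKM, and those of 12 h held 1060, 1013 and 1115.
No light library overlapped the dark range, and the means from 2 h to 12 h lay between 1062 and 1230 FPKM. LHCA4 had a log2 fold change of 1.06 (SE 0.225, adjusted p = 0.00452) at 1 h, 2.27 (SE 0.233, adjusted p = 2.53e-06) at 2 h and 2.32 (SE 0.233, adjusted p = 1.06e-06) at 12 h. Its call at 1 h was lost without dark replicate 2, where the log2 fold change was 0.84 (adjusted p = 0.00612), as well as with library size alone as the scaling and with the 1 h and dark libraries fitted alone.

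LHCA3, which forms a pair with LHCA2, was measured at 151, 96.4 and 198 FPKM in the dark and at 193, 157 and 124 FPKM at 1 h. These ranges overlapped, and the log2 fold change at 1 h was 0.16 (SE 0.217, adjusted p = 0.711). At 2 h its libraries held 596, 429 and 419 FPKM, and at 12 h 576, 594 and 543.
All libraries from 2 h onward were above all those of the dark and of 1 h. The log2 fold change was 1.6 (SE 0.222, adjusted p = 3.88e-05) at 2 h and 1.98 (SE 0.225, adjusted p = 3.85e-06) at 12 h, and the means from 4 h to 12 h lay between 558 and 571 FPKM.

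LHCA2 was the member with the smallest difference at 12 h, and the last to pass the test. In the dark it was already at 260, 161 and 258 FPKM, and at 1 h at 215, 180 and 120. The 2 h libraries held 412, 291 and 255 FPKM, which overlapped the dark range, and the 4 h libraries 421, 479 and 360.
By 12 h the level was 658, 689 and 595 FPKM, above every dark library. The log2 fold change was -0.33 (SE 0.241, adjusted p = 0.437) at 1 h, 0.43 (SE 0.241, adjusted p = 0.154) at 2 h and 0.89 (SE 0.242, adjusted p = 0.00742) at 4 h, the last under the fold minimum. It was 1.31 (SE 0.244, adjusted p = 0.000431) at 8 h and 1.58 (SE 0.246, adjusted p = 8.63e-05) at 12 h, a 2.99-fold difference. Without dark replicate 1 LHCA2 passed at 4 h.

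LHCA5, one of the minor members that link photosystem I to the NDH complex, started low. Its dark libraries held 12.2, 16.8 and 14.6 FPKM and its 1 h libraries 31.3, 26.3 and 21.1. At 2 h it was at 44.8, 37.9 and 35.8 FPKM, at 4 h at 67.5, 69.1 and 60.1, and at 8 h at 102, 91.6 and 87.6.
The ranges of the dark, 1 h, 2 h, 4 h and 8 h did not overlap, each higher than the time before, and the 12 h libraries (91.4, 94.1 and 87.3 FPKM) overlapped those of 8 h. The log2 fold change was 0.87 (SE 0.167, adjusted p = 0.00218) at 1 h, under the fold minimum, 1.33 (SE 0.168, adjusted p = 1.74e-05) at 2 h and 2.67 (SE 0.174, adjusted p = 1.12e-08) at 12 h. Without dark replicate 2, LHCA5 passed at 1 h with a log2 fold change of 1.1 (adjusted p = 0.000351), and it also passed without replicate 3 of 1 h.

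LHCA6, the other minor member, had the largest fold difference at 12 h, from the lowest starting level, which rested on 161, 123 and 150 expected counts in the dark libraries. It was at 6.22, 4.77 and 5.77 FPKM in the dark and at 5.53, 3.37 and 3.49 at 1 h, ranges that overlapped. The libraries of 2 h were wide apart, at 64.0, 41.0 and 18.3 FPKM, and those of 12 h held 71.6, 75.2 and 57.4.
All libraries from 2 h onward lay above all those of the dark and 1 h, and the lowest of them was 2 h replicate 3. The log2 fold change was -0.39 (SE 0.355, adjusted p = 0.557) at 1 h, 2.81 (SE 0.352, adjusted p = 1.6e-05) at 2 h and 3.66 (SE 0.362, adjusted p = 9.11e-07) at 12 h, a 12.6-fold difference.

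**Figure D2:**
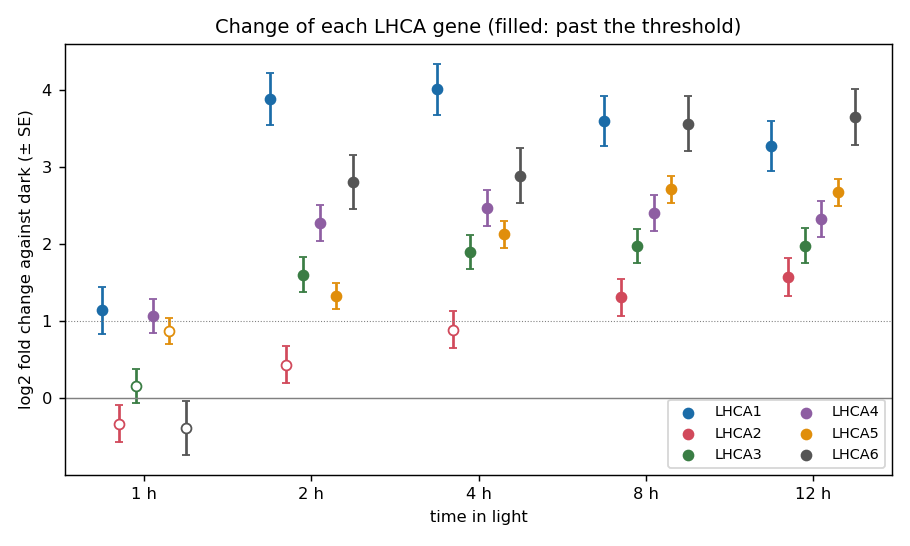
Log2 fold change of each LHCA gene against dark at 1, 2, 4, 8 and 12 h in edgeR's quasi-likelihood fit, with bars of 1 SE; filled points passed the threshold and the dotted line marks the fold minimum. With all libraries LHCA1 and LHCA4 passed from 1 h, LHCA3, LHCA5 and LHCA6 from 2 h and LHCA2 from 8 h; without dark replicate 2 LHCA5 alone passed at 1 h, and without dark replicate 1 LHCA2 passed at 4 h, with 12 h values in the fit of all libraries between 1.58 for LHCA2 and 3.66 for LHCA6.

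After the first hour, the step from 1 h to 2 h was the only one between neighbouring times in which members were called, with 4 of 6 higher and 0 lower, where 15.7% of all genes tested were called higher and 5.66% lower. LHCA6 rose by a log2 fold change of 3.20 (SE 0.360, adjusted p = 2.28e-05) and LHCA1 by 2.75 (SE 0.316, adjusted p = 2.54e-05). LHCA3 rose by 1.44 and LHCA4 by 1.21, with adjusted p-values of 0.000158 and 0.000606. LHCA2, at 0.76 (adjusted p = 0.0166), and LHCA5, at 0.46 (adjusted p = 0.0311), stayed under the fold minimum. The summed root markers stood at 236, 230 and 112 FPKM in the 2 h libraries, against 130, 140 and 164 at 1 h, and 6 of the 9 root markers tested were higher at 2 h than at 1 h; their part in the LHCA result was not tested. Without 2 h replicate 3 this step was 3.54 for LHCA6, 2.94 for LHCA1, 1.54 for LHCA3, 1.28 for LHCA4, 0.90 for LHCA2 and 0.52 for LHCA5. The log2 fold changes at 2 h against dark were then 4.09 for LHCA1, 0.58 for LHCA2, 1.71 for LHCA3, 2.36 for LHCA4, 1.4 for LHCA5 and 3.16 for LHCA6. Without dark replicate 3 the log2 fold changes at 12 h were 3.57, 1.63, 2.18, 2.56, 2.62 and 3.63 for LHCA1 to LHCA6 in that order. With either library left out, no member's call against dark or in the step from 1 h to 2 h differed.

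No member was called from 2 h to 4 h, from 4 h to 8 h or from 8 h to 12 h in edgeR's test, in which 9.77%, 3.57% and 0% of all genes tested were called in either direction. DESeq2 and limma-voom called no member in these steps either; from 8 h to 12 h they called 7 genes and 1 gene in all. At an unadjusted p under 0.05 there was 1 member in the first of these steps, 1 in the second and 0 in the third. The member was LHCA5 in both, with log2 differences of 0.80 (adjusted p = 0.00419) from 2 h to 4 h and 0.59 (adjusted p = 0.0291) from 4 h to 8 h in edgeR's test, both under the fold minimum; by the adjusted p alone, 11.1% and 6.57% of all genes tested were higher in these steps. In the contrast of 12 h with 4 h, added after the values had been seen, 0 members were called by any of the 3 tools. By the same rule edgeR called 2.9% of genes tested higher and 2.51% lower. At an unadjusted p under 0.05 there were 4 members in this contrast. No share of all genes is given for an unadjusted p, so such counts, here and for the lists below, have no background. LHCA1 lay lower at 12 h than at 4 h in that contrast, and LHCA2, LHCA5 and LHCA6 lay higher, at log2 differences of 0.69, 0.55 and 0.77. For LHCA2, LHCA5 and LHCA6 the adjusted p-values in edgeR's test were 0.0681, 0.0325 and 0.125. LHCA5 thus passed by the adjusted p alone but lay under the fold minimum, and no share of all genes is given for that rule in this contrast.

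The make-up of the LHCA transcript pool differed between dark and light. The 6 members together made up 0.109% ± 0.0353 of all FPKM in the dark and 0.151% ± 0.0239 after 1 h (SD, n = 3). After 2 h they made up 0.473% ± 0.114, and after 12 h 0.476% ± 0.00943. LHCA1 took 8.02% ± 1.75 of the summed LHCA FPKM before light, 29.7% ± 3.22 after 2 h and 17.5% ± 0.408 after 12 h. The share of LHCA2 lay the other way, at 34.3% ± 4.03 in the dark, 11.1% ± 0.217 after 2 h and 21.9% ± 1.21 after 12 h.
LHCA4 held 32.4% ± 3.46 before light, 48.5% ± 3.12 after 1 h and 36.0% ± 2.39 after 12 h, and LHCA3 stayed between 16.9% and 22% on average. LHCA5 and LHCA6 together remained the small fraction of the pool, at 2.43% ± 1.31 and 0.877% ± 0.227 in the dark and 3.07% ± 0.0605 and 2.3% ± 0.278 at 12 h. The shares of LHCA1, LHCA2 and LHCA3 did not overlap those of the dark at any of the 5 light times, and those of LHCA4 did not at 1, 2 and 4 h. The share of LHCA6 lay below the dark range at 1 h (0.445% ± 0.0846) and above it at 4, 8 and 12 h, and that of LHCA5 lay below it at 2 h (1.4% ± 0.157). With 3 libraries against 3, the exact two-sided permutation test cannot go below p = 0.1, which each of these reached (0.13 after adjustment over 30 comparisons), so none passed 0.05. The 6 shares are parts of one sum, so a rise of one member lowers the others and they are not independent. Without dark replicate 3 and 2 h replicate 3, the mean share of LHCA1 was 7.3% in the dark and 31.6% after 2 h, that of LHCA2 36.5% and 11.2%, and that of LHCA4 30.9% and 37.8%. LHCA3 then held 21.6% and 16.4%, LHCA5 2.8% and 1.34%, and LHCA6 0.982% and 1.66%, and all 6 together 0.0955% and 0.516% of all FPKM.

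**Figure D3:**
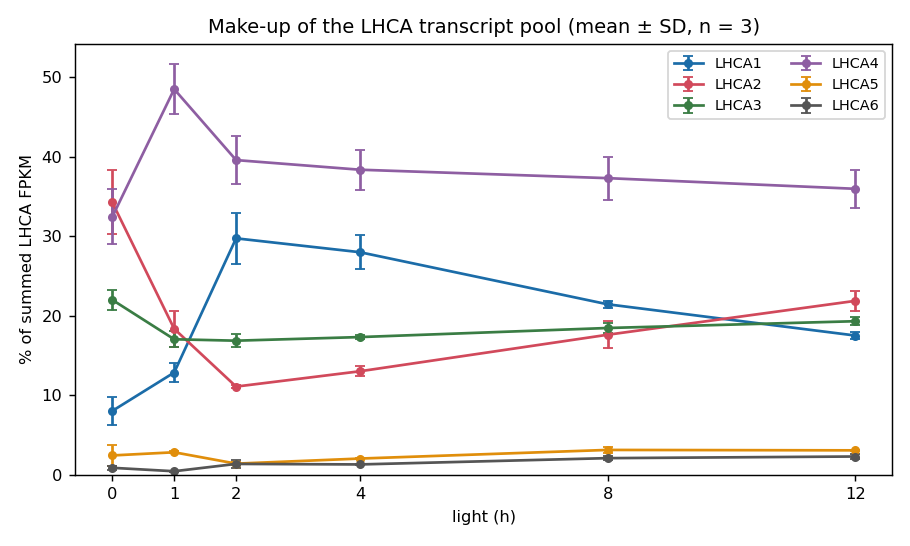
Share of the summed LHCA FPKM held by each gene against hours of light, as means with bars of 1 SD (n = 3). The lines of LHCA1 and LHCA2 cross between the dark, where LHCA2 held 34.3% and LHCA1 8.02%, and 2 h, where they held 11.1% and 29.7%.

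The order of the levels differed between times as well. In the dark LHCA2 and LHCA4 led, LHCA2 in replicates 1 and 2 and LHCA4 in replicate 3, and their means of 226 ± 56.7 and 224 ± 93.7 FPKM (SD, n = 3) did not differ beyond their spread. LHCA3 and LHCA1 followed, and LHCA5 and LHCA6 came last. LHCA4 was the highest member in all 15 light libraries. LHCA1 stood second in all 9 libraries of 2, 4 and 8 h but below LHCA4, LHCA2 and LHCA3 at 12 h, where its mean was close to that of LHCA3 (518 ± 20.4 against 571 ± 25.7 FPKM). LHCA6 exceeded LHCA5 in replicates 1 and 2 of 2 h and in no other library.

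Whether one member changed more than another was tested directly with the log2 ratio of 2 members' FPKM (pseudocount 0.1) in each library, comparing the 3 dark libraries with the 6 of 8 h and 12 h in an exact two-sided permutation test. Of 15 pairs, 11 passed with an adjusted p of 0.0325; before adjustment each had an exact p of 0.0238, the smallest the design allows. A single pair at that p could not have passed, so the 11 passed only because they shared it. The 15 ratios reuse the same 6 genes and the same libraries and are not independent. How many pairs of other genes would pass was not tested. The log2 ratio of LHCA1 to LHCA2 was -2.11 ± 0.49 in the dark (SD, n = 3) and -0.02 ± 0.34 later (SD, n = 6), a gain of 2.09. The later ratios ran from -0.36 to 0.41, with LHCA1 above LHCA2 in every library of 8 h and below it in every library of 12 h. The later SD therefore holds a difference between times. Within the pair LHCA1 and LHCA4 the log2 ratio went from -2.03 ± 0.18 to -0.92 ± 0.17, a gain of 1.11 for LHCA1.
Within the pair LHCA2 and LHCA3 it went from 0.63 ± 0.22 to 0.05 ± 0.15, a loss of 0.58 for LHCA2 (late minus dark -0.58). LHCA6 gained on LHCA2 (LHCA2 over LHCA6, -2.12), on LHCA3 (-1.54) and on LHCA4 (-1.14). Against all 15 light libraries these differences were -1.67, -0.87 and -0.27 and none passed (adjusted exact p = 0.0551, 0.165 and 0.654), and that with LHCA4 was also lost with a pseudocount of 1 (-0.96, adjusted exact p = 0.0595). The ratio of LHCA1 to LHCA6 differed by -0.03 (adjusted exact p = 0.905), that of LHCA4 to LHCA5 by -0.29 (adjusted exact p = 0.434), that of LHCA3 to LHCA5 by -0.68 (adjusted exact p = 0.165) and that of LHCA5 to LHCA6 by -0.86 (adjusted exact p = 0.0595), none of which passed. The ratio of LHCA1 to LHCA5, which passed at 0.83, rested on dark replicate 2: without it the difference was 0.23. It was also lost against all 15 light libraries, at 1.31. With 12 h alone in place of 8 h and 12 h, the smallest exact p is 0.1 and no pair could pass.

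At 1 h, rare forms of LHCA1 and LHCA3 that keep introns made up a larger part of their genes' transcripts than in any other library. The annotated form AT3G54890.4 of LHCA1 keeps the 91 bases of intron 3, and AT1G61520.2 of LHCA3 is a single exon that keeps both introns, of 89 and 87 bases. In the annotation both forms change the protein: the coding sequence of LHCA1's form ends at a stop codon inside the kept intron, and that of LHCA3's form starts inside intron 2. The stretches that carry these ends are shown 5′ to 3′ on the gene's strand from RefSeq's TAIR10.1, with capitals for intron and lower case for the neighbouring 15 bases of exon. The first ends with the stop codon TAA and the second begins with the start codon ATG.
LHCA1 form, chr3:20339881-20339954, reverse strand: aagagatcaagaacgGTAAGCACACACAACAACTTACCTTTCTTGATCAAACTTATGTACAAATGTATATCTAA
LHCA3 form, chr1:22700493-22700548, forward strand: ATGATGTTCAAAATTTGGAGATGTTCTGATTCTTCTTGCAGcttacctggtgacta

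The LHCA1 form AT3G54890.4 held 7.37%, 7.95% and 13.3% of the gene's transcript FPKM in the 1 h libraries. In the 15 other libraries it held at most 5.12%, reached in dark replicate 2, and its mean was 0.833% at 12 h. The LHCA3 form AT1G61520.2 held 8.58%, 11.7% and 8.24% at 1 h and at most 6.07% elsewhere, reached in 2 h replicate 2.
For both forms the 3 libraries of 1 h thus stood above all others, a pattern found for 0.443% of the 24807 transcripts compared. These were transcripts of tested genes that had more than 1 listed transcript and were above 0 in every library. Each held at least 5% of its gene's transcript FPKM in some library. The expected counts behind the 1 h values were 276, 232 and 372 for the LHCA1 form and 485, 537 and 299 for the LHCA3 form, against at most 35.4 and 78.3 in the dark. The pattern was noticed in these data and carries no test, and the counts are estimates that divide reads between overlapping forms. In level, the forms were not highest at 1 h: the LHCA1 form was at 11 ± 2.68 FPKM after 1 h and 19.9 ± 4.67 after 2 h (SD, n = 3), and the LHCA3 form at 15.1 ± 4.28 and 21.3 ± 4.16.

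**Figure D4:**
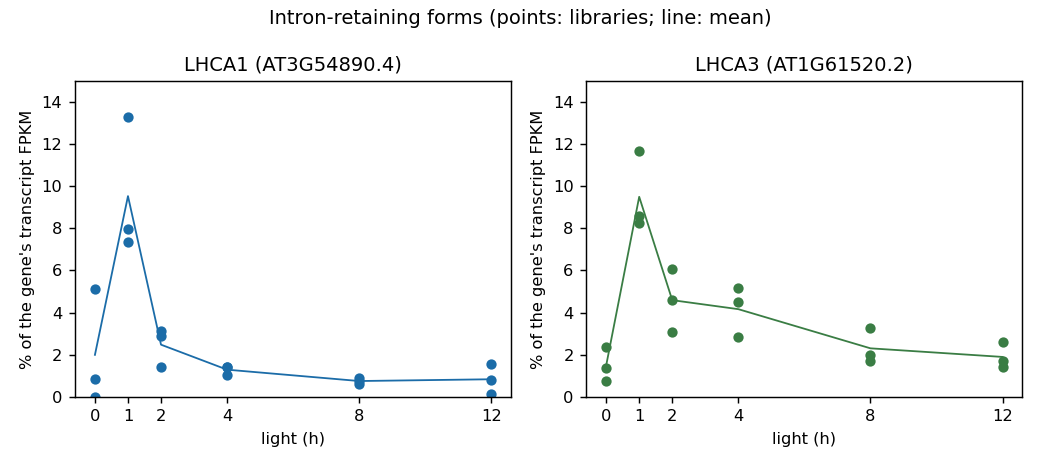
Share of each gene's transcript FPKM held by the intron-keeping forms of LHCA1 and LHCA3 against hours of light, with 1 point per library and lines through the means. At 1 h the points lie between 7.37% and 13.3% for LHCA1 and between 8.24% and 11.7% for LHCA3, above the points of every other time.

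The shares of the main forms were compared between the dark and the libraries of 8 h and 12 h, and no difference passed after adjustment. With 7 forms tested, a single form cannot go below an adjusted exact p of 0.167. LHCA1 was carried by AT3G54890.1, with 98.0% of its transcript FPKM in the dark and 99.2% at 8 h and 12 h. LHCA3 was split between AT1G61520.1, at 48.6% in the dark and 42.6% later, and AT1G61520.3, at 49.9% and 55.3%, and the adjusted exact p-values of the differences were 0.167 and 0.208. For AT1G61520.1 the exact p was 0.0238, the smallest the design gives, since its shares in the dark (46.1% to 52.2%) lay above all those of 8 h and 12 h (38.1% to 45.6%). LHCA5 was split between AT1G45474.1, at 56.2% and 67.4%, and AT1G45474.2, at 43.8% and 32.6%, with an adjusted exact p of 0.208 in both cases.

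The other nuclear genes of the complexes that the antenna serves were read from lists that, like the members, were chosen with earlier results known. Of the 12 photosystem I core genes, 0 were higher at 1 h by edgeR, DESeq2 or limma-voom (1 at an unadjusted p under 0.05), 10 at 2 h and 11 at 12 h, with a median log2 fold change of 2.3 at 12 h. PSAK, a core subunit next to the antenna, had the largest change, 3.86 (adjusted p = 1.3e-07), from 36.3 to 504 FPKM. PSAE2, a subunit on the stromal side where ferredoxin docks, had the smallest, 0.96 (adjusted p = 0.000498), under the fold minimum and with fractional counts in every library.
Of the 15 genes of the photosystem II antenna, 1 was higher at 1 h, 13 at 2 h and 14 at 12 h, with a median of 2.1 at 12 h. LHCB1.1, which encodes a protein of the main trimeric antenna and shares reads with near-identical copies, had the largest value, 5.69 (adjusted p = 4.03e-05). LHCB4.2, a minor antenna protein of photosystem II, had the smallest, 0.11 (adjusted p = 0.669), at 246 FPKM in the dark and 256 at 12 h.

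The NDH complex, to which LHCA5 and LHCA6 attach photosystem I, had the largest median among the lists at 12 h, 3.80, with 17 of its 18 genes higher. After 1 h, 3 were higher and 1 was lower, and after 2 h 14 were higher. NDHU had a log2 fold change of 6.10 at 12 h (adjusted p = 1.7e-09), from 0.85 to 55.8 FPKM, and NDHS 0.32 (adjusted p = 0.119), from 77.1 to 93.7 FPKM. Of 18 genes 10 were higher at 12 h than at 4 h, in the contrast added after the values had been seen. In it 2.9% of all genes tested were called higher. None of the 6 LHCA genes was called there, and 0 of 12 photosystem I core genes and 1 of 15 photosystem II antenna genes were higher.
Of 5 genes that deliver antenna proteins to the thylakoid, 0 were called at 2 h by any of the 3 tools (3 at an unadjusted p under 0.05) and 4 were higher at 12 h. LTD, which guides antenna proteins in the chloroplast, had the largest value, 2.25 (adjusted p = 8.63e-06), with fractional counts in every library. The insertase ALB3 had the smallest, 0.29 (adjusted p = 0.0882). Of 6 photosystem I assembly genes, 2 were higher at 2 h and 6 at 12 h, from 1.17 for AT1G22700 to 3.19 for PSA2.

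**Figure D5:**
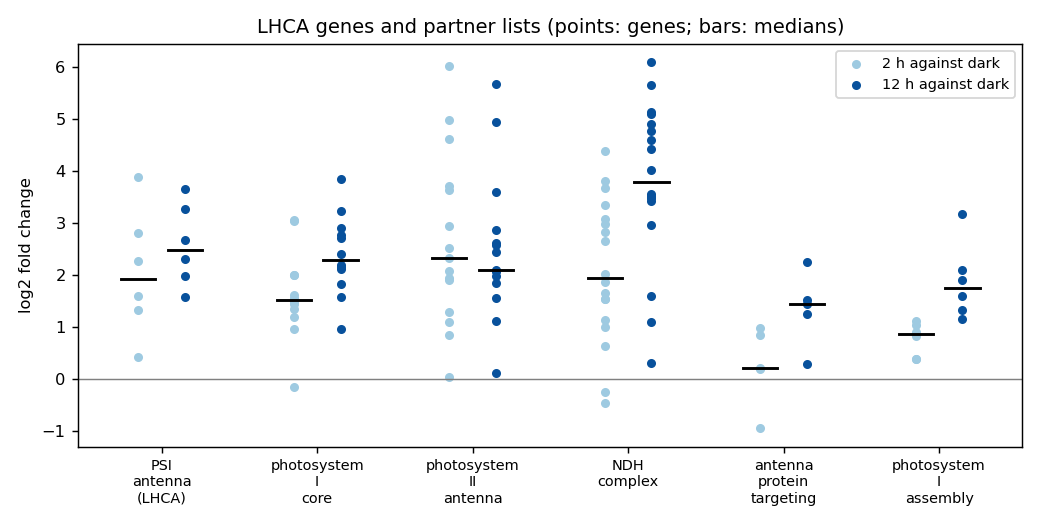
Log2 fold change against dark of the LHCA genes and of the genes of each partner list, with 1 point per gene and bars at the medians. At 12 h the medians were 2.5 for the LHCA genes, 2.3 for the photosystem I core, 2.1 for the photosystem II antenna and 3.80 for the NDH complex.

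The genes whose course was most like each member's were found by the Pearson correlation of log2 CPM over the 18 libraries among 20563 other genes, a description in which every point shares library and depth. For LHCA1 these were AT4G27560 (0.990), LHCB3, an antenna protein of photosystem II (0.986), and AAO2, an aldehyde oxidase (0.977). For LHCA4 they were GUN5, the H subunit of magnesium chelatase in chlorophyll synthesis (0.979), AT1G51805 (0.977) and GUN4, which activates that chelatase (0.974).
For LHCA2 they were PSAH-1, a photosystem I core subunit (0.979), TROL, a thylakoid protein that anchors ferredoxin-NADP reductase (0.978), and OEP6, of the outer envelope (0.976). For LHCA3 they were PSAO, a core subunit (0.987), LHCB5, a minor antenna protein of photosystem II (0.987), and HEMA1, which starts tetrapyrrole synthesis (0.986). For LHCA5 they were AT1G52870 (0.993), the protease ARASP (0.991) and AT1G12250 (0.990), and for LHCA6 CaS, a thylakoid calcium-sensing protein (0.996), AT1G74070 (0.995) and PSBQA, of the oxygen-evolving complex (0.994). Among the members themselves the highest correlation was between the partners LHCA1 and LHCA4 (0.980) and the lowest between LHCA1 and LHCA2 (0.711). The other partners, LHCA2 and LHCA3, were at 0.893. That was below LHCA3 with LHCA6 (0.965), LHCA1 with LHCA3 (0.947), LHCA3 with LHCA4 (0.943) and LHCA2 with LHCA6 (0.916), which are not partners.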

How the data were processed

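PolyA RNA libraries of seedlings were sequenced by BGISEQ-500, per the labels' protocols. The deposited tables give, per gene and per transcript, expected counts and FPKM, per the file headers. The submitters' processing notes name RSEM, Bowtie2 and HISAT2; their versions, their roles and the genome build are not given in the sources used here. From the deposited FPKM, levels, shares and log2 ratios (pseudocount 0.1) were computed. The deposited expected counts of all genes were rounded to whole numbers, scaled by TMM, filtered with filterByExpr (20569 of 24951 genes kept) and fitted over all 18 libraries with edgeR 4.0.16 (glmQLFit, glmQLFTest; R 4.3.3, limma 3.58.1). Adjusted p-values are Benjamini-Hochberg values over all genes tested in each contrast, and SE is the log2 fold change divided by the square root of F. Alternatives included DESeq2 1.42.0, limma-voom, other scalings and filters, and leaving out each library. Shares, log2 ratios and shares of transcript forms were compared between groups of libraries by exact permutation tests of the difference of means (scipy 1.17.1). The procedure was tested on simulated counts. Replicates carry the numbers of the sample titles; in 5 of 18 libraries, all of the dark or 2 h, the deposited table is numbered otherwise. Members and lists were chosen with earlier results of these data known. Named genes were the 6 members, the genes with the highest and lowest log2 fold change at 12 h in each list, and the 3 genes most correlated with each member. Promoters, introns and coding ends came from RefSeq's TAIR10.1, and 24745 of 24746 nuclear genes have the same start and end there and in the files. A planned comparison of the proteins was not run. The depth was 20072467 to 22760811 expected counts per library, and values of genes or forms with few counts are less precise.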

Additional observations from a re-analysis of the deposited data

How the results depend on the processing

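In the 25 alternatives run for each member, the calls against dark at 2, 8 and 12 h and in the step from 1 h to 2 h kept their direction and side of the threshold in 150 of 150 cases per contrast, those at 4 h in 149 and those at 1 h in 141. The number of members called at 1 h was 1 with library size alone, 0 with the dark and 1 h libraries fitted alone, and 1 to 3 when a library was left out. With an adjusted p alone as the rule, 1 member was called from 2 h to 4 h and 1 from 4 h to 8 h. In the added contrast of 12 h with 4 h, LHCA5 had an adjusted p of 0.0325 in edgeR's test. At 1 h limma-voom called 2 NDH genes; with library size alone, 1 targeting gene was called at 2 h.

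With 12 h alone as the late group no pair could pass (adjusted exact p = 0.125), since 3 libraries against 3 allow no less than 0.1; the late minus dark log2 ratios were 1.79, 1.33, 1.00 and 0.69 for LHCA1 over LHCA2, LHCA3, LHCA4 and LHCA5, -0.45, -0.79, -1.10 and -2.03 for LHCA2 over LHCA3, LHCA4, LHCA5 and LHCA6, -0.34 and -1.58 for LHCA3 over LHCA4 and LHCA6, and -1.24 for LHCA4 over LHCA6. Against all 15 light libraries LHCA1 over LHCA5 (1.31), LHCA2 over LHCA6 (-1.67), LHCA3 over LHCA6 (-0.87) and LHCA4 over LHCA6 (-0.27) no longer passed, and LHCA1 over LHCA6 (0.83) and LHCA4 over LHCA5 (0.21) turned their direction without passing. With a pseudocount of 1 LHCA1 over LHCA6 was 0.14, of the opposite sign, and LHCA4 over LHCA6 was -0.96 (adjusted exact p = 0.0595). The cause of the changes with all 15 light libraries and with the pseudocount was not tested.

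With 1 library left out in turn, the log2 ratios ranged from 1.84 to 2.32 for LHCA1 over LHCA2, 1.31 to 1.62 over LHCA3, 1.01 to 1.18 over LHCA4, 0.23 to 1.16 over LHCA5 and -0.41 to 0.28 over LHCA6. For LHCA2 they ranged from -0.71 to -0.51 over LHCA3, -1.14 to -0.82 over LHCA4, -1.60 to -1.03 over LHCA5 and -2.24 to -2.04 over LHCA6. They ranged from -0.46 to -0.29 for LHCA3 over LHCA4, -1.72 to -1.33 for LHCA3 over LHCA6, -1.42 to -0.89 for LHCA4 over LHCA6 and -1.06 to -0.64 for LHCA5 over LHCA6. With 2 dark libraries left, the smallest exact p is 0.0714. Log2 differences that did not pass also changed sign: LHCA3 at 1 h (-0.008 to 0.364), LHCA1 and LHCA6 from 2 h to 4 h (-0.071 to 0.431 and -0.269 to 0.572), LHCA3 from 4 h to 8 h (-0.027 to 0.175), LHCA3, LHCA5 and LHCA6 from 8 h to 12 h (-0.09 to 0.113, -0.1 to 0.029 and -0.08 to 0.208) and LHCA3 from 4 h to 12 h (-0.007 to 0.143). The share of LHCA5 at 4 h minus dark ranged from -0.777 to 0.365 points, and the late minus dark shares of AT3G54890.1 and AT3G54890.4 from -0.367 to 2.19 and -2.20 to 0.363 points. Numbers of genes called ranged from 1 to 4 for the photosystem II antenna at 1 h, 2 to 5 for the NDH complex at 1 h, 0 to 2 for targeting at 2 h and 0 to 4 for assembly at 2 h.

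The groups share replicate numbers, but nothing says that a number pairs libraries: same-numbered libraries deviated together with correlations of -0.395 to 0.297 (mean -0.015), and 12 of 45 pairs exceeded 0.1. Of 15 pairs of times, dark and 2 h were the 1 in which all 3 same-numbered pairs exceeded 0.1 (0.116 to 0.297), and these are the times whose replicate 3 stood apart and whose deposited tables are numbered otherwise than the titles. With the replicate number as a block, 6 of 6 members kept their call at 2 h against dark, with shifts of at most 0.078 on the log2 scale. Over all contrasts, 60 of 60 member results under the block kept the same call, and the largest shift was 0.091 on the log2 scale. The block used the numbers of the titles. A block with the numbers of the deposited tables was not fitted, so pairing by those numbers was not tested.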
